A study of Mus musculus with 9 samples.

Results

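The RNA that sediments with polysomes was compared with total RNA of the same mouse bone marrow populations, in a model that estimates 1 polysomal effect for both populations at once. All 9 libraries of the series enter, 5 of polysomal RNA against 4 of total RNA, with the population as a second term. Of 47480 gene names in the count table, 16426 had enough counts to be tested, and 9486 of these (57.75%) had the same direction in LSK and in MP cells, 4445 higher and 5041 lower in polysomal RNA.

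The cells came from C57BL/6 mice and fall into 4 groups, 2 libraries of LSK polysomal RNA, 3 of MP polysomal RNA, 2 of LSK total RNA and 2 of MP total RNA. LSK denotes marrow cells that lack lineage markers and carry both Sca-1 and Kit, named stem cells in the labels. MP is the name of a progenitor population, given there without its full form. All cells, those for total RNA included, had been held in 100 ug/ml cycloheximide for 10 min, an agent that arrests elongating ribosomes on their messages. Lysate was then spun through a 10 to 60% sucrose gradient and cut into 10 fractions, of which fraction 7 was taken as polysomal RNA. Total RNA came from lysate kept back before the gradient. Whether the libraries of 1 group are separate animals is not in the labels. The p-values below therefore measure only how these libraries differ, and that may be technical.

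A message being translated carries several ribosomes at once, and such polysomes sink further in sucrose than single ribosomes or free RNA. Longer reading frames have room for more ribosomes, and RNAs that are not translated, such as small nucleolar RNAs and many long noncoding RNAs, mostly stay outside polysomes. Ribosomal proteins and several translation factors are made from TOP messages, which begin with a run of pyrimidines at the cap and whose loading onto polysomes depends on mTOR signalling. Hematopoietic stem cells are known for a low rate of protein synthesis compared with progenitors.

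The sequences shown first are those of 2 classes that run through the results. The starts of a pair of ribosomal protein genes and of Gas5, a noncoding RNA that hosts small nucleolar RNAs and is itself a TOP transcript, show the pyrimidine run in capitals, after 12 bases of upstream sequence (RefSeq starts, GRCm38.p6).
Rplp2: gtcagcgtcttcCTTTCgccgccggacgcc
Rpl35: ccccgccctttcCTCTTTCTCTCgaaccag
Gas5: cgccatctcagcCTTTCggagctgtgcggc
The first lies at chr7:141447639-141447668 on the plus strand, the second at chr2:39005114-39005143 on the minus strand and the third at chr1:161035154-161035183 on the plus strand. A C at the annotated start followed by at least 4 pyrimidines, read on the gene's strand, was found at 1 or more starts of 14 of the 62 ribosomal protein genes with a RefSeq start (22.6%), and at 813 of all 27025 genes in that table (3.01%). A match describes the letters at an annotated start, which need not be the cap site in these cells.

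The other class is the small nucleolar RNAs, which guide chemical modification of ribosomal RNA in the nucleolus and are cut from introns of host genes. Snord72 is a box C/D guide, with the TGATG of its C box and the CTGA of its D box in capitals (GENCODE M21, GRCm38).
Snord72: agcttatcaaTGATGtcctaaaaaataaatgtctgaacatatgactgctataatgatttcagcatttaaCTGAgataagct
Snord72 lies at chr15:5118404-5118484 on the plus strand within Rpl37. TGATG in the first 15 bases together with CTGA in the last 15, on the transcript's strand, was present in 337 of 1507 annotated small nucleolar RNA transcripts (22.4%) and in 11 of 21835 coding transcripts cut to the same 81 bases from their 5′ end (0.0504%).

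The libraries held between 27342343 and 34807735 counts, so depth differed little, and the spread between libraries set the precision, the biological coefficient of variation being 0.63 at its median. Levels are given in CPM, counts scaled to an effective library size with the trimmed mean of M-values (TMM), so a level is relative to the other genes of its library. LSK polysomal 2 stood apart in 2 respects, holding the fewest genes with a count and 12% of its coding counts in genes below the lower quartile of GC content, against 18% to 28.7% in the other libraries. Markers of maturing neutrophils made up 1.59% of counts in MP polysomal 1 and 1.36% in MP total 1, against 0.0464% to 0.252% elsewhere. Immunoglobulin genes made up 0.511% of counts in LSK polysomal 2 and 0.837% in LSK total 2, against 0.0147% to 0.111% elsewhere. The part of either in the results was not tested.

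Fewer genes were detected in polysomal RNA of both populations, and a smaller share of its counts fell on noncoding genes. Genes with at least 1 count numbered 19088 and 17199 in LSK polysomal and 19426, 18585 and 19401 in MP polysomal libraries, against 23657 and 23160 in LSK total and 20081 and 26046 in MP total libraries. No polysomal library reached the lowest total library. The mean of the differences within each population was -4596 genes (exact permutation test within populations over 60 arrangements, two-sided, p = 0.0167, the smallest this design can give; adjusted over 4 such values, 0.0222).

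Long noncoding genes took 0.567% and 0.381% of counts in LSK polysomal and 0.560%, 0.518% and 0.452% in MP polysomal libraries, against 0.994% and 1.47% in LSK total and 0.630% and 0.715% in MP total libraries. Polysomal libraries lay below total libraries in both populations without overlap (difference -0.46 percentage points, exact permutation p = 0.0167, adjusted 0.0222). A single long noncoding gene, Gm26917, had 147 and 3632 CPM in LSK total and 543 and 1416 CPM in MP total libraries. In polysomal libraries it had 0.565 to 36.3 CPM (adjusted p = 0.159 by edgeR). This gene therefore held a large part of the difference in share, and the share without it was not tested. Protein-coding genes took 96.5% to 97.2% of counts in polysomal libraries and 93.9% to 96.3% in total libraries (exact permutation p = 0.0167, adjusted 0.0222), and pseudogenes 0.197% to 0.341% and 0.312% to 0.466% (exact permutation p = 0.0333, adjusted 0.0333).

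**Figure D1:**
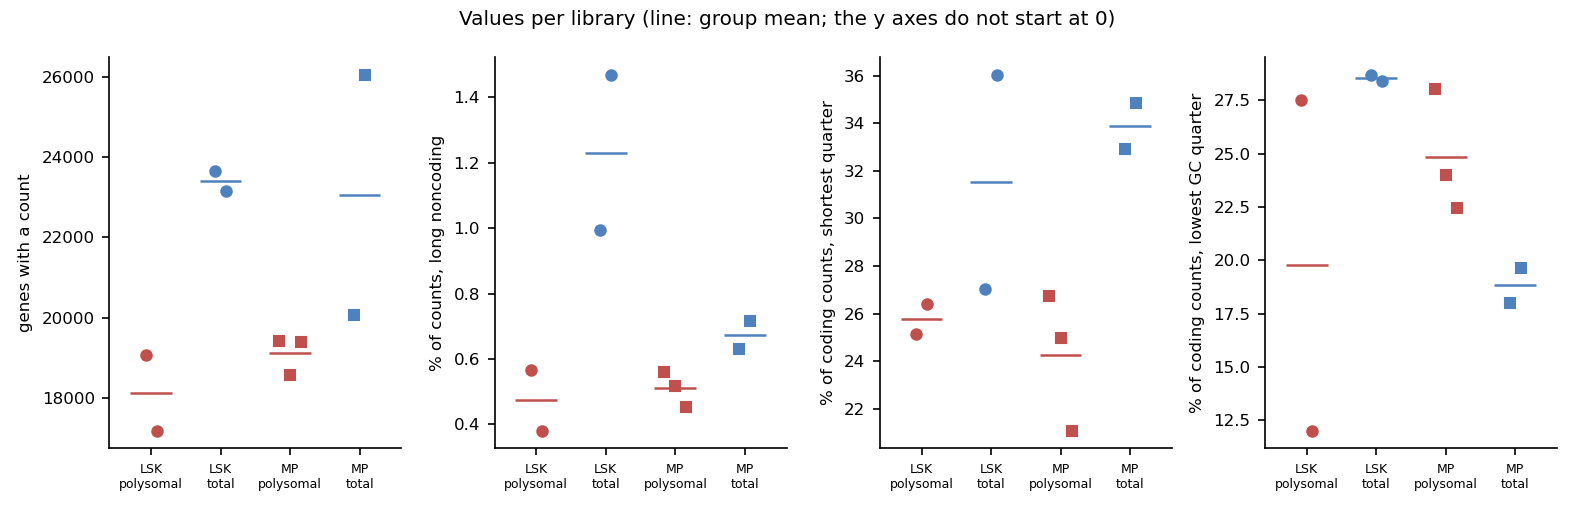
Each panel gives 1 value per library (y axes in genes or percent, not starting at 0) for LSK polysomal, LSK total, MP polysomal and MP total RNA, with a line at the group mean. Polysomal libraries lie below total libraries within both populations for genes with a count, long noncoding share and the share of the shortest coding genes (under 861 bases). The share of the GC-poor genes runs opposite ways, lower in LSK polysomal RNA (only slightly in LSK polysomal 1) and higher in MP polysomal RNA.

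Among single genes, Zfp46 was 1 of 2 that passed at an adjusted p under 0.05, both lower in polysomal RNA. Zfp46, a zinc finger gene on chromosome 4, had 2.29 and 0.789 CPM in LSK polysomal and 1.43, 1.59 and 2.01 CPM in MP polysomal libraries, against 16 and 14.6 CPM in LSK total and 25.3 and 29.3 CPM in MP total libraries. The highest polysomal library lay below the lowest total library of either population. In polysomal RNA it fell by 3.70 on the log2 scale (SE 0.44, edgeR quasi-likelihood test with Benjamini-Hochberg adjustment over 16426 genes, adjusted p = 0.0406), with -3.30 in LSK and -4.02 in MP. No other annotated gene overlaps it (chr4:136284683-136293942, plus strand). Its adjusted p lay between 0.0705 and 0.222 when any single library was left out, at 0.106 with the average of the within-population contrasts and at 3.9e-16 with DESeq2.

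The predicted model Gm10800 was the only other gene to pass, also lower. It had 1 count in each of 2 polysomal libraries and 0 in the other 3, against 12.5 and 4.41 CPM in LSK total and 2.86 and 23.8 CPM in MP total libraries. Summed over libraries, its polysomal level was 0.131% of the total level (95% exact interval 0.0158% to 0.474%, counting error only; adjusted p = 0.0357 by edgeR). Gm10800, Gm10801 and Gm21738 are models of repeated sequence and moved alike, so reads may be split among them, and their identity as separate genes is uncertain. Without 1 library, the adjusted p of Gm10800 ranged from 0.0104 to 0.203 and stayed under 0.05 only without MP total 1 or MP total 2.

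At this threshold edgeR thus called 0% of tested genes higher and 0.0122% lower. At an unadjusted p under 0.05, 2234 genes were called in either direction, where 821 would be called with no effect at all. With the same direction in both populations, 677 genes (4.12%) were higher and 1544 (9.4%) lower. The split leaned further to lower genes with scaling by library totals alone. The median log2 change of all genes was then -0.24, beside 0.02 with TMM, and higher genes made up 11.5% of those at an unadjusted p under 0.05, beside 30.4%. Single libraries moved the number of higher genes with the same direction in both populations. Higher genes numbered 285 without LSK polysomal 1, 1330 without LSK polysomal 2, 420 without MP polysomal 2, 421 without MP total 2 and between 456 and 1009 without any other library, and lower genes between 1263 and 1856. DESeq2 called 132 genes higher (0.806%) and 681 lower (4.16%) in both populations at an adjusted p under 0.05. Counts were also simulated with the spread of these libraries, with few of the 16426 genes changed and the others left without effect. Recovery with a larger share of changed genes was not simulated. At an adjusted p under 0.05, edgeR recovered 0% of genes changed 2-fold, 30% of those changed 4-fold and 82% of those changed 8-fold in this simulated setting. Genes named from here on did not pass this threshold with edgeR and are given as levels and log2 changes.

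Genes that led in 1 population mostly had the same direction in the other. LSK and MP have no library in common, so genes ranked in one can be read in the other. Of the 100 genes with the smallest p among those lower in LSK polysomal RNA, 93 were also lower in MP, with a median log2 change of -1.95 there, and 31 had an unadjusted p under 0.05 in that direction. Of the 100 leading lower genes of MP, 97 were lower in LSK, with a median of -2.56, and 42 had such a p there. Among higher genes, 83 of the leading 100 of LSK were higher in MP, with a median of 0.55, and 64 of the leading 100 of MP were higher in LSK, with a median of 0.19. Of these, 11 of the LSK set reached an unadjusted p under 0.05 in MP, and 0 of the MP set did in LSK. At that threshold the same fits had 1451 higher and 771 lower of all 16426 genes in MP, and 97 and 1002 in LSK. Among all tested genes, 46.9% were higher in either population, 52.6% lower in MP and 53% lower in LSK. The leading lower genes were rare, with a median of the mean levels of 0.568 CPM for LSK and 1.56 CPM for MP, and the limit on rare RNAs given with the small nucleolar RNAs holds for them.

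The likeness between populations was smaller among abundant genes. Over all tested genes, the log2 changes in LSK and MP correlated across genes with Pearson's r = 0.39 and Spearman's rho = 0.28. Among the 9073 genes averaging 10 CPM or more, r was 0.084 and rho 0.061, and 54.3% of genes had the same direction. Genes are not independent, and the correlations describe these libraries. In the fit with a separate effect for each population, no gene passed for LSK, MP or their difference with edgeR (1981, 1243 and 869 genes at an unadjusted p under 0.05). Of the 2221 genes with the same direction and an unadjusted p under 0.05, 177 had an unadjusted p under 0.05 for the difference between populations.

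Small nucleolar and nuclear RNAs were lower in polysomal RNA in nearly all tested members. Of 339 such genes on the list, 44 had enough counts, 39 of these were lower and 0 higher at an unadjusted p under 0.05 in both populations, and the median log2 change was -2.59, beside 0.02 for all tested genes. A gene seen only in total RNA can enter the test through those libraries alone and can then only be lower, so for rare RNAs these counts are descriptions. Snora68, a box H/ACA guide, had 0.365 and 0.166 CPM in LSK polysomal and 1.2, 0.958 and 0.988 CPM in MP polysomal libraries, against 2.33 and 2.94 CPM in LSK total and 4.13 and 3.34 CPM in MP total libraries. Its groups did not overlap, and the log2 change was -2.47 (SE 0.49).

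Snord72 had 0.166 CPM in both LSK polysomal libraries and 0.0683, 0.231 and 0.159 CPM in MP polysomal libraries, against 1.46 and 1.15 CPM in LSK total and 1.40 and 0.422 CPM in MP total libraries. MP total 2 was the lowest total library and still lay above every polysomal one. Scarna2, which guides modification of small nuclear RNAs in Cajal bodies, had no count in 3 of 5 polysomal libraries and 0.204 to 1.2 CPM in total libraries. Vaultrc5, a vault RNA, had 0.0319 to 0.137 CPM in polysomal libraries and 0.204 to 1.07 CPM in total libraries.

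The host messages of these RNAs differed less between polysomal and total RNA. Of 57 tested small nucleolar RNAs in the annotation, 41 lie within 28 tested coding genes on the same strand, and all 41 had a lower log2 change than their host. The limit on rare RNAs given above holds for these small RNAs, and several share a host, so the 41 pairs are a description. The median was -2.47 for the small RNAs and -0.21 for the hosts, of which 5 were lower and 3 higher at an unadjusted p under 0.05. Rpl37, which holds Snord72, had a log2 change of -0.98. Tpt1, an abundant TOP message for a calcium-binding growth protein, had -1.33, while the Snora31 in its intron had -2.78. Reads over a small RNA and over the host intron around it cannot be told apart in these counts.

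**Figure D2:**
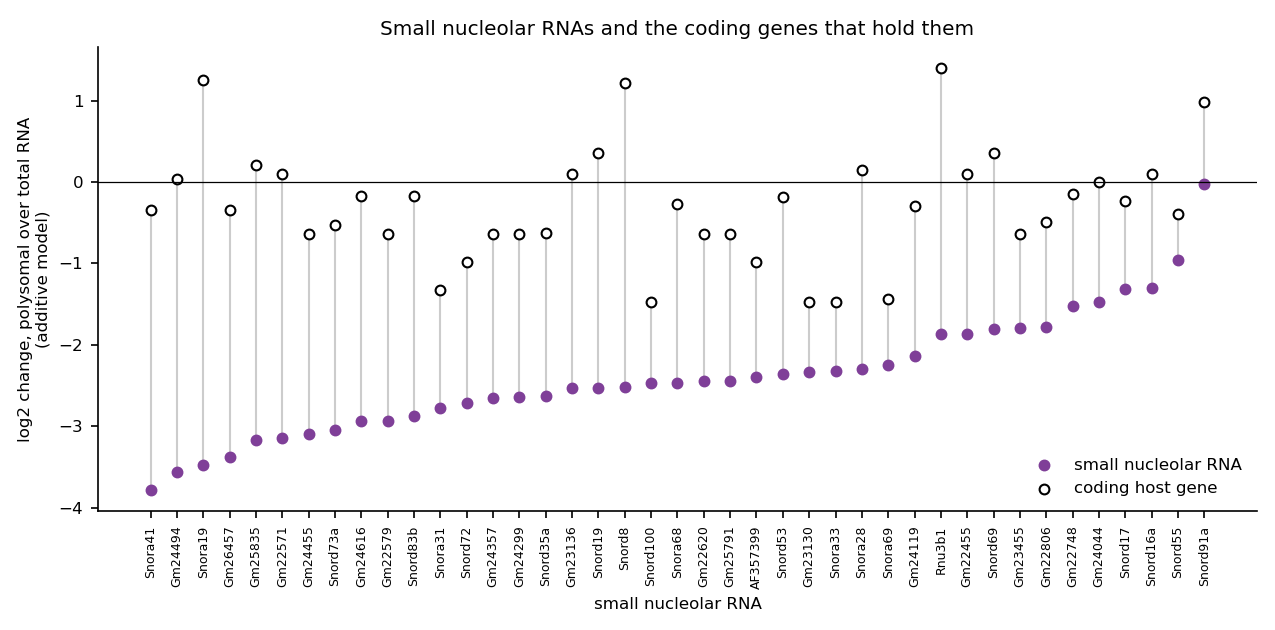
Log2 change of polysomal over total RNA in the additive model (y axis) for 41 small nucleolar RNAs (filled) and the coding gene that holds each (open), joined by a line and ordered by the small RNA. All 41 filled points lie below their host, most of them between -1 and -4, while hosts scatter on both sides of 0.

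The spliced noncoding genes that host small nucleolar RNAs were lower as well. Of 15 tested host genes on the list (of 16), 12 were lower and 0 higher at an unadjusted p under 0.05 in both populations, with a median log2 change of -1.47. Snhg6 had 3.29 and 5.65 CPM in LSK polysomal and 2.73, 7.93 and 6.37 CPM in MP polysomal libraries, against 14.8 and 25.6 CPM in LSK total and 18.8 and 29.4 CPM in MP total libraries. Dancr had 1.26 and 2.53 CPM in LSK polysomal and 1.95, 3.07 and 1.47 CPM in MP polysomal libraries, against 6.48 and 14.1 CPM in LSK total and 6.09 and 8.21 CPM in MP total libraries. In both genes every polysomal library lay below every total library.

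Gas5 was present at a higher level and showed the same direction, with 187 and 122 CPM in LSK polysomal and 162, 158 and 111 CPM in MP polysomal libraries, against 495 and 496 CPM in LSK total and 276 and 301 CPM in MP total libraries. Its log2 change was -1.32 (SE 0.31). The median was -0.67 for ribosomal protein genes and 0.08 for the list of other TOP messages, which holds Gas5. The part of its pyrimidine start in this change was not tested. Snhg9 and Snhg14 had log2 changes of -3.21 and -4.69. Snhg14 spans 211 other annotated genes on its strand, so its counts may include theirs.

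Nuclear long noncoding RNAs were lower too, with larger medians in LSK. Of 24 on the list, 17 were tested, 9 were lower and 0 higher at an unadjusted p under 0.05 in both populations, and the median log2 change was -1.92 in the additive model, -2.63 in LSK and -0.83 in MP. Firre, which anchors chromosome domains in the nucleus, had 3.85 and 2.33 CPM in LSK polysomal and 5.88, 3.44 and 4.43 CPM in MP polysomal libraries, against 104 and 20.2 CPM in LSK total and 16.9 and 6.88 CPM in MP total libraries. Meg3, an imprinted noncoding RNA, had no count in any polysomal library and 0.0333 to 0.817 CPM in total libraries. Pooled over both populations, it was at least 23.3-fold lower by a floor of 3 counts over the polysomal group. Its total libraries held 28 and 31 counts in LSK but 1 and 5 in MP, so that fold does not describe MP. Neat1, the scaffold of paraspeckles, had 4.36 to 46.7 CPM in polysomal and 26.9 to 84.4 CPM in total libraries, and was lower in each population without overlap.

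Malat1, a nuclear speckle RNA, did not follow the rule of a shared direction. It had 183 and 13.5 CPM in LSK polysomal and 242, 136 and 242 CPM in MP polysomal libraries, against 679 and 978 CPM in LSK total and 88.6 and 112 CPM in MP total libraries. Polysomal libraries were thus below total libraries in LSK and above them in MP, and the difference between populations was not called by edgeR (log2 4.11, adjusted p = 0.877).

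Across the annotation, the direction followed gene type. Of 105 tested small structural RNAs, 83 (79.0%) were lower and 0 higher at an unadjusted p under 0.05 in both populations. Of 465 models still to be experimentally checked, 285 (61.3%) were lower and 2 higher, and of 63 RNAs annotated within introns of the same strand, 45 were lower and 1 higher. Among 1209 long noncoding genes, 385 (31.8%) were lower and 5 higher, and among 1141 pseudogenes, 165 were lower and 12 higher. Protein-coding genes split evenly, with 638 of 12803 higher and 541 lower. The 3 noncoding classes with the largest shares hold many genes rarely seen in polysomal libraries, to which the limit on rare RNAs given above applies.

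Messages of replication-dependent histones, which pack DNA in S phase and end in a stem-loop in place of a poly(A) tail, were low in all libraries and lower in polysomal RNA. Of 70 on the list, 57 were tested, 21 were lower and 0 higher at an unadjusted p under 0.05 in both populations, and every tested member had a negative log2 change, from -2.88 to -0.02. Among all tested genes, 9.4% were lower. The limit on rare RNAs given with the small nucleolar RNAs holds for the rarer histone genes, so these counts are descriptions. Hist1h2bj had 0.631 and 0.831 CPM in LSK polysomal and 1.16, 2.18 and 2.33 CPM in MP polysomal libraries, against 1.46 and 4.39 CPM in LSK total and 6.66 and 6.88 CPM in MP total libraries. Hist4h4 had 0.649 to 1.58 CPM in polysomal and 2.92 to 3.66 CPM in total libraries. Histone genes share near-identical copies, so reads may be split among them.

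Ribosomal protein messages, the largest group of TOP messages, were moderately lower in polysomal RNA. Of 90 on the list, 87 were tested, 35 were lower and 0 higher at an unadjusted p under 0.05 in both populations, and 83 had a negative log2 change. Without MP total 2 the count of lower genes was 15. The median was -0.67, with -0.49 in LSK and -0.89 in MP. All polysomal libraries lay below all total libraries within both populations for 36 of the 87, where the same held for 8.03% of all tested genes, and the reverse for 0 of the 87 against 2.91%.

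Rplp2, an acidic protein of the ribosomal stalk, had 100.5 and 137 CPM in LSK polysomal and 126, 271 and 179 CPM in MP polysomal libraries, against 219 and 359 CPM in LSK total and 439 and 620 CPM in MP total libraries. Rpl35, a protein of the large subunit, had 128 and 51.1 CPM in LSK polysomal and 79.3, 94.6 and 56.0 CPM in MP polysomal libraries, against 165 and 245 CPM in LSK total and 209 and 330 CPM in MP total libraries. In both genes every polysomal library lay below every total library of its population, with log2 changes of -1.38 (SE 0.34) and -1.54 (SE 0.38). Rpl36 and Rpl39, also of the large subunit, had log2 changes of -1.44 each. Summed over all 90 genes, ribosomal proteins took 3.17% and 2.19% of counts in LSK polysomal and 2.57%, 2.64% and 1.64% in MP polysomal libraries, against 3.26% and 4.83% in LSK total and 3.69% and 4.71% in MP total libraries.

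The pyrimidine start was about as frequent among the lower ribosomal protein genes as among the rest. Of the 35 lower genes, 25 had a RefSeq start and 6 of these (24.0%) the run of at least 5, beside 8 of 37 (21.6%) among the other 52. The elongation factors and other TOP messages outside the ribosome showed no common direction, with 4 of 20 higher, 2 lower and a median log2 change of 0.08, which lay between -0.15 and 0.26 without any 1 library. Eef2, the factor that moves the ribosome along the message, had 2872 and 5082 CPM in LSK polysomal and 2806, 3422 and 2325 CPM in MP polysomal libraries, against 1603 and 915 CPM in LSK total and 2297 and 1730.4 CPM in MP total libraries. MP polysomal 3 and MP total 1 were nearly equal. Hnrnpa1, a splicing and export factor, had a log2 change of 1.30 (SE 0.35) without overlap in either population.

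Some other short messages were lower as well, while the medians of the lists that hold them lay near 0 in LSK. Of 79 tested nuclear genes for respiratory chain subunits, 12 were lower and 2 higher at an unadjusted p under 0.05 in both populations, with a median log2 change of -0.0031 in LSK and -0.66 in MP. Without 1 library the lower genes numbered 2 (MP total 2) to 24 (LSK polysomal 2). Ndufc1, a small accessory subunit of complex I with a reading frame of 228 bases, had 31.2 to 60.1 CPM in polysomal and 59.2 to 133 CPM in total libraries. Ndufs1, the large iron-sulfur subunit of the same complex with 2181 bases, had 192 to 779 CPM in polysomal and 114 to 227 CPM in total libraries, with overlap in LSK. Their log2 changes were -1.13 (SE 0.33) and 1.42 (SE 0.38). Sec61b, a small subunit of the channel through which proteins enter the endoplasmic reticulum, had a log2 change of -1.34, in a list of 27 endoplasmic reticulum genes with 4 lower, 1 higher and a median of 0.06.

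Many genes that were higher in polysomal RNA have long messages. Of the 51 giant cytoskeletal, trafficking and ubiquitin ligase genes on a list, all tested, 28 were higher and 0 lower at an unadjusted p under 0.05 in both populations, with a median log2 change of 1.30, 0.69 in LSK and 1.89 in MP. The list was chosen for the size of its proteins with earlier results of these data known, so its direction is a description. Without LSK polysomal 1 the count was 13 and without LSK polysomal 2 it was 40.

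Herc2, a ubiquitin ligase that acts at DNA breaks, had 143 and 39.2 CPM in LSK polysomal and 89.4, 214 and 163 CPM in MP polysomal libraries, against 27.2 and 21.3 CPM in LSK total and 35.2 and 26.4 CPM in MP total libraries. Its log2 change was 2.14 (SE 0.47; adjusted p = 0.159 by edgeR, 0.00124 by DESeq2). Usp24, a deubiquitinase, had a log2 change of 1.63 (SE 0.38), and Rnf213, a large ligase with an AAA motor, one of 2.04 (SE 0.48). In each of these genes the lowest polysomal library lay above the highest total library of its population. Ahnak, a giant scaffold under the plasma membrane, had 6.98 to 30.4 CPM in polysomal and 1.79 to 6.68 CPM in total libraries.

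Chromatin regulators of large size leaned the same way, with 14 of 50 higher and 0 lower at an unadjusted p under 0.05 in both populations and a median log2 change of 0.79. The median was 0.18 in LSK and 1.09 in MP, and 4.12% of all tested genes were higher. This list was also chosen for size with earlier results known, so its direction is a description. The count of higher genes was 25 without LSK polysomal 2, 9 without MP polysomal 1, and 4 to 7 without LSK polysomal 1, MP polysomal 2, MP total 1 or MP total 2. Trrap, the scaffold of several histone acetyltransferase complexes, had 242 and 187 CPM in LSK polysomal and 179, 331 and 206 CPM in MP polysomal libraries, against 82.7 and 68.8 CPM in LSK total and 93.2 and 68.6 CPM in MP total libraries. Ep400 and Arid1a, subunits of chromatin remodellers, had log2 changes of 1.17 and 1.05. Prpf8, the core scaffold of the spliceosome, had 669 and 356 CPM in LSK polysomal and 719, 1172 and 972 CPM in MP polysomal libraries, against 234 and 117 CPM in LSK total and 348 and 343 CPM in MP total libraries. The other members of the spliceosome list were mostly short of an unadjusted call, with 9 of 68 higher, 1 lower and a median of 0.05, and 3 higher without LSK polysomal 1 and 5 without MP total 2.

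**Figure D3:**
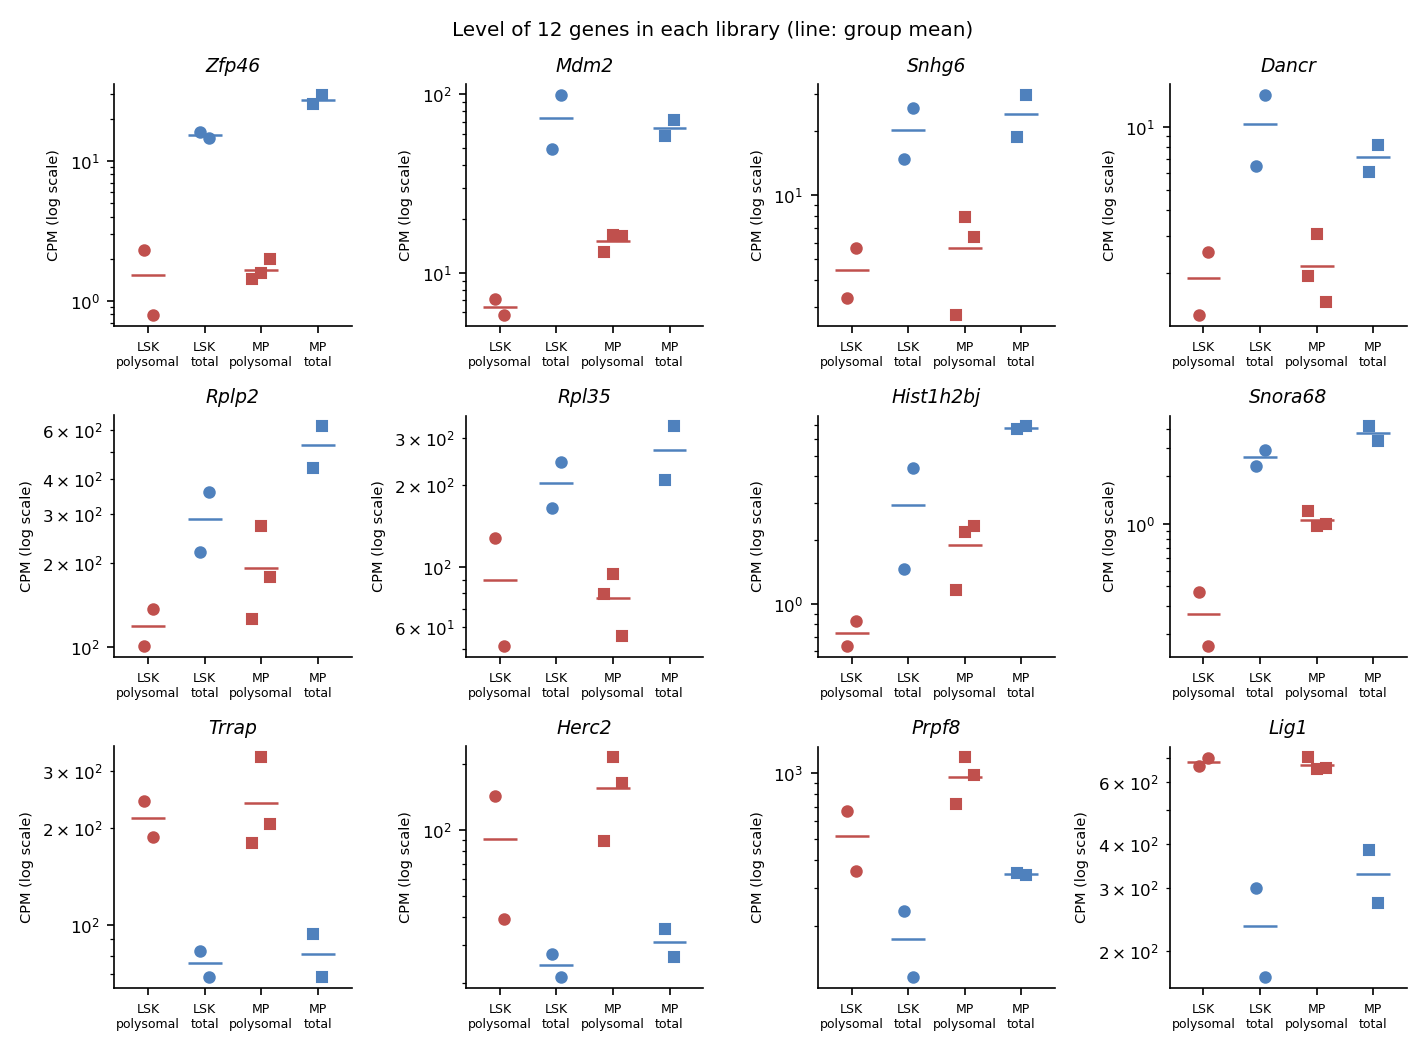
CPM on a log axis for 12 genes in LSK polysomal, LSK total, MP polysomal and MP total libraries, 1 point per library and a line at the group mean. In the top and middle panels (Zfp46, Mdm2, noncoding hosts, ribosomal proteins, a histone and Snora68) polysomal points lie below total points of the same population, and in the bottom panels (Trrap, Herc2, Prpf8, Lig1) above them.

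The relation with reading frame length held across the coding genes, and differed in shape between the populations. Among the 12792 tested coding genes with an annotated coding length, the shortest decile (111 to 537 bases) had 2 genes higher and 168 lower at an unadjusted p under 0.05 in both populations, while the longest decile (3495 bases and more) had 212 higher and 28 lower. The median log2 change was -0.38 in the shortest and 0.53 in the longest decile. In MP it increased through all deciles, from -0.56 in the shortest to 0.66 in the longest, whereas in LSK it was -0.13 in the shortest decile, 0.32 in the fifth, 0.15 in the eighth and 0.26 in the longest. The Spearman correlation of coding length with log2 change across genes was 0.33 in the additive model, 0.081 in LSK and 0.39 in MP, and 0.45, 0.10 and 0.51 over 8646 genes averaging 10 CPM or more. Without 1 library the value stayed between 0.24 and 0.37 in the additive model and between 0.26 and 0.47 in MP. Leaving out LSK polysomal 2 or LSK total 1 gave 0.20 and 0.19 in LSK, and leaving out LSK polysomal 1 or LSK total 2 gave -0.04 each, so its sign there rested on single libraries.

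**Figure D4:**
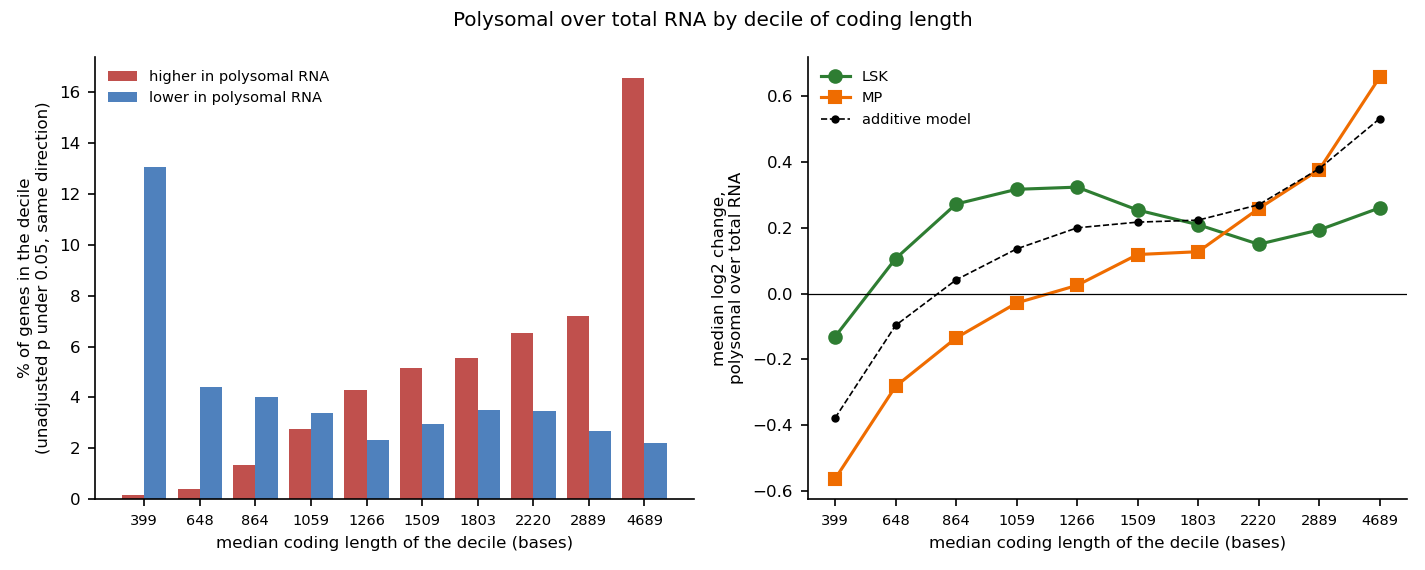
Left, percent of coding genes in each decile of coding length that were higher or lower in polysomal RNA at an unadjusted p under 0.05 with the same direction in both populations; right, median log2 change by decile in LSK, in MP and in the additive model, with the median coding length of the decile in bases on the x axes. The share of lower genes is 13.1% in the shortest decile, the share of higher genes 16.6% in the longest, and the MP line climbs throughout while the LSK line peaks in the fifth decile and stays below that value after it.

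The gradient was also present within classes of 3′ untranslated region length. Among genes below the lower quartile of 3′ untranslated region length, the median log2 change was 0.37 above the upper and -0.33 below the lower quartile of coding length. Among genes above the upper quartile it was 0.45 and -0.07. Exon number, which goes with coding length, gave a like gradient, from 57 higher and 249 lower among genes with at most 5 exons to 354 higher and 75 lower among those with 16 or more. By number of ATG triplets ahead of the reading frame, 3.26% of genes with 4 or more and 5.74% of genes with none were higher, and 4.61% and 4.28% were lower, with a median log2 change of 0.12 in both classes. Counted over reads, coding genes under 861 bases took 25.1% and 26.4% of coding counts in LSK polysomal and 26.7%, 25% and 21.1% in MP polysomal libraries, against 27% and 36% in LSK total and 32.9% and 34.9% in MP total libraries.

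Median changes by GC content ran opposite ways in the populations, while the LSK polysomal libraries differed from each other. Below the lower quartile of GC content the median log2 change was -0.40 in LSK and 0.58 in MP, and above the upper quartile 0.59 in LSK and -0.39 in MP. Of the GC-poor genes 115 were higher and 115 lower with the same direction in both populations, and of the GC-rich ones 79 were higher and 183 lower. The GC-poor genes took 27.5% and 12% of coding counts in LSK polysomal and 28.0%, 24.0% and 22.5% in MP polysomal libraries, against 28.7% and 28.4% in LSK total and 18% and 19.6% in MP total libraries. The GC-rich genes took 14.6% and 33.2% in LSK polysomal against 17.8% and 20.3% in LSK total libraries. LSK polysomal 1 thus lay below and LSK polysomal 2 above both LSK total libraries. In MP they took 16.5%, 20.5% and 23.9% in polysomal against 26.0% and 25.2% in total libraries. The part of base composition in the values of single genes was not tested.

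Aminoacyl-tRNA synthetases, which charge transfer RNAs with amino acids for translation, were higher in polysomal RNA. Of 36 tested, 14 were higher and 0 lower at an unadjusted p under 0.05 in both populations, with a median log2 change of 0.75, 1.13 in LSK and 0.50 in MP. The count was 5 to 8 without LSK polysomal 1, LSK total 2, MP polysomal 2 or MP total 2. Lars, the leucine enzyme, had 481 and 204 CPM in LSK polysomal and 673, 810 and 619 CPM in MP polysomal libraries, against 220 and 52.2 CPM in LSK total and 171 and 134 CPM in MP total libraries, so a pair of LSK libraries overlapped. Hars and Sars, the histidine and serine enzymes, had log2 changes of 1.12 and 1.13 without overlap, and Eprs, which charges glutamate and proline, 1.48 with overlap in LSK. Of 42 initiation factors, 4 were higher and 0 lower, with a median of 0.31, and 0 to 2 were higher without LSK polysomal 1, LSK total 2, MP polysomal 2 or MP total 2. The 76 tested mitochondrial ribosome proteins had 1 higher and 1 lower, and 2 higher and 14 lower without LSK polysomal 2.

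Genes of DNA replication were higher in 12 of 46 and lower in 0 at an unadjusted p under 0.05 in both populations, with medians of 0.62 in LSK and 0.41 in MP. The count was 7 without LSK total 2 or MP polysomal 2 and 3 without MP total 2. Lig1, the ligase that joins Okazaki fragments, had 666 and 702 CPM in LSK polysomal and 702, 651 and 656 CPM in MP polysomal libraries, against 300.5 and 168 CPM in LSK total and 385 and 272 CPM in MP total libraries. The polysomal libraries of both populations lay close together, and all total libraries were lower and more spread. Mcm7 and Mcm3, subunits of the replicative helicase, both had log2 changes of 1.33. Mitosis genes had 9 of 42 higher and 0 lower, glycolysis genes 6 of 21 and 0, and genes of cholesterol and fatty acid synthesis 8 of 28 and 0, among them Acaca, which makes malonyl-CoA (log2 1.43, SE 0.37). Median log2 changes in LSK and in MP were 0.085 and 1.28 for mitosis, 1.45 and 0.39 for glycolysis, and 0.97 and 0.40 for synthesis genes. The counts of these lists changed with single libraries. Without 1 library, mitosis genes had 1 (LSK polysomal 1 or MP total 2) to 24 higher (LSK polysomal 2), glycolysis genes 2 (MP total 2) to 11 (MP total 1), and synthesis genes 2 (LSK polysomal 1, LSK total 2, MP polysomal 2 or MP total 2) to 8.

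**Figure D5:**
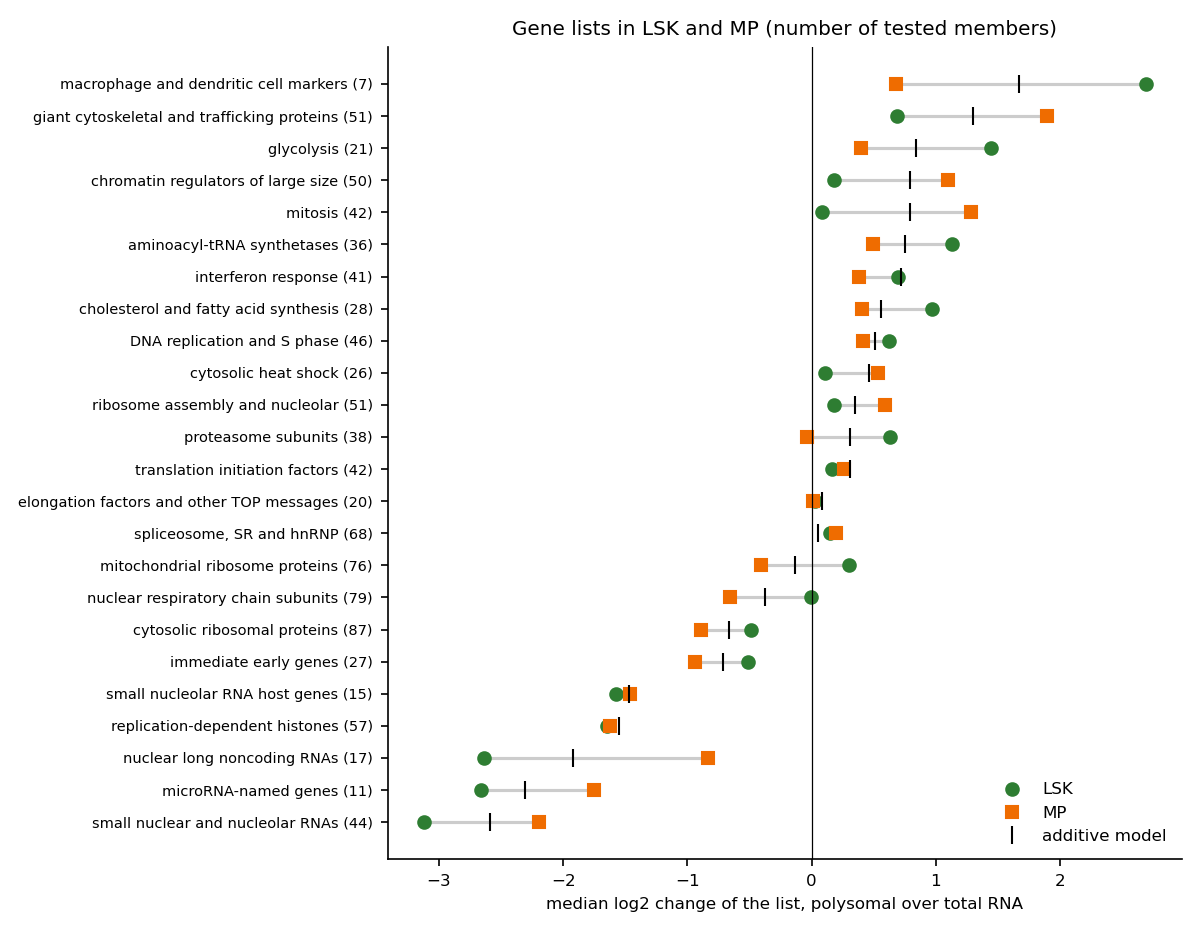
Median log2 change of polysomal over total RNA for 24 gene lists (number of tested members in brackets), in LSK, in MP and in the additive model. Lists of noncoding RNAs, histones and ribosomal proteins lie below 0 in both populations, and lists of large proteins, synthetases and DNA replication above 0 in both, while respiratory chain and mitochondrial ribosome lists differ in sign or reach 0 in LSK.

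Among stress-response genes, a few were strongly lower while the list as a whole was split, with 5 of 30 higher and 5 lower at an unadjusted p under 0.05 in both populations, and 2 to 5 of each without any 1 library. Mdm2, the ligase that degrades p53, had 7.11 and 5.77 CPM in LSK polysomal and 13.0, 16.3 and 16 CPM in MP polysomal libraries, against 49.3 and 98.3 CPM in LSK total and 58.5 and 71.2 CPM in MP total libraries. Its log2 change was -2.76 (SE 0.44), with the highest polysomal library at 16.3 CPM and the lowest total library at 49.3 CPM (adjusted p = 0.13 by edgeR, 7.8e-08 by DESeq2). Ppp1r15a, a phosphatase subunit that reverses the block on initiation and is itself read through upstream reading frames, had 20.8 to 60.1 CPM in polysomal and 92.4 to 202 CPM in total libraries.

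Other regulatory genes with low polysomal levels were Gar1, a protein of H/ACA particles, with a log2 change of -2.90 (SE 0.70), and Zfp692, a zinc finger gene, with -2.20 (SE 0.49). Of 333 tested Zfp genes, 15 were lower and 4 higher, both smaller shares than the 9.4% lower and 4.12% higher among all tested genes. The median of the Zfp genes ran opposite ways, -0.61 in LSK and 0.57 in MP. Without LSK polysomal 2, 41 Zfp genes were higher, and 29 without LSK total 1. Immediate early genes, which are switched on within minutes of a stimulus, had 4 of 27 lower and 0 higher, and 0 lower without LSK total 2 or 7 without LSK total 1. Further counts were 1 without MP polysomal 2 and 2 without LSK polysomal 1. Fosb had 0.498 to 13.0 CPM in polysomal and 12 to 119 CPM in total libraries.

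Further genes higher in polysomal RNA included some known from macrophages. Cd5l, a secreted macrophage protein, had 3.99 and 8.72 CPM in LSK polysomal and 0.751, 1.32 and 0.159 CPM in MP polysomal libraries, against 0.642 and 0.0499 CPM in LSK total and 0.0666 and 0 CPM in MP total libraries. Itgad, an integrin of splenic macrophages, and Abca1, a cholesterol exporter, had log2 changes of 3.30 (SE 0.74) and 1.88 (SE 0.41). Of 8 macrophage and dendritic cell markers, 7 were tested, with 4 higher and 0 lower at an unadjusted p under 0.05 in both populations. Their summed share of counts was 0.0143% and 0.0134% in LSK polysomal and 0.0682%, 0.0418% and 0.0406% in MP polysomal libraries, against 0.0062% and 0.00503% in LSK total and 0.0337% and 0.0211% in MP total libraries. This share was higher in MP than in LSK, whereas Cd5l was higher in LSK than in MP polysomal libraries.

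C1qa, a complement gene of macrophages, was highest in LSK polysomal 2 at 15.5 CPM and lay between 0.26 and 6.38 CPM in the other libraries, and Siglech, a marker of plasmacytoid dendritic cells, had too few counts to be tested. In these bulk libraries, more cells of a type and more of its RNA per cell cannot be told apart, and the part of other cells in these values was not tested. Markers of the sorted cells themselves gave few calls. The 12 stem cell markers had 0 higher and 0 lower at an unadjusted p under 0.05, the 8 of granulocyte and monocyte progenitors 0 higher and 1 lower (Cebpe, a transcription factor of granulocytes, log2 -0.89), and the 10 erythroid markers 1 higher, the transcription factor Gata1 (log2 0.89, SE 0.30).

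Megakaryocyte genes held members with either direction. Pf4, a short chemokine message, had a log2 change of -1.18 and Vwf, the long message of von Willebrand factor, one of 1.10. Libraries overlapped in both populations for Pf4 and in MP for Vwf. Within mTOR signalling, Rictor, the scaffold of the second complex, had a log2 change of 1.5 (SE 0.40) and Mtor, its kinase, 0.92 (SE 0.38), and the 20 tested members had 2 higher and 0 lower, and 1 to 3 higher and 0 to 1 lower without 1 library.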

How the data were processed

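RNA of LSK and MP cells was measured in 9 libraries, made with a SMARTer amplification protocol (per the labels). The authors deposited raw counts per gene symbol. A second deposited table holds values they normalized on a log2-like scale, and served as an alternative. Per the submitters' processing notes, bcl2fastq, STAR, featureCounts and DESeq2 were used, with mm10 and GRCm38. Versions, annotation and strand setting are not given there, so overlapping, antisense and near-identical genes may share reads.

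The deposited counts were fitted with edgeR 4.0.16 under R 4.3.3 (quasi-likelihood F test, TMM scaling, filterByExpr over 4 groups with a minimum count of 10 and total of 15, Benjamini-Hochberg adjustment, threshold 0.05). The additive model holds population and fraction; directions within LSK and MP come from a mean per group. Single values were tested by exact permutation within populations. Alternatives were DESeq2 1.42.0, limma 3.58.1 on the normalized table, other scalings and filters, 1 population alone, a block for library number and each library left out. The fit was tested on simulated counts. Gene types, lengths and positions come from GENCODE M21, matched by symbol for 15846 of 16426 tested genes, with coding length from the longest annotated reading frame.

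Members and lists were chosen with earlier results of these data known. Genes were named by rule: those passing that averaged 10 CPM or more in the higher fraction without overlap, the 10 with the smallest p in a direction where none passed, the leading predicted models, up to 4 with the smallest p per list, and a fixed set. Rpl37 and Snora31 were added as partners of host pairs after their values were seen. Intervals cover counting error only. Some items are not reported here.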

Additional observations from a re-analysis of the deposited data

Results flagged for a closer look

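In 4 measures, polysomal libraries lay on opposite sides of total libraries in LSK and in MP, without overlap in either population. For the first 3 the difference between populations was not tested. Genes below the lower quartile of GC content took 27.5% and 12% of coding counts in LSK polysomal against 28.7% and 28.4% in LSK total libraries, a difference of -8.80 percentage points. LSK polysomal 1 was close to the LSK total libraries, so the difference in LSK rested mainly on LSK polysomal 2. In MP the GC-poor genes took 28.0%, 24.0% and 22.5% in polysomal against 18% and 19.6% in total libraries, a difference of 6.02 points.

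Nuclear respiratory chain genes summed to 13174 and 25239 CPM in LSK polysomal against 12001 and 13135 CPM in LSK total libraries. LSK polysomal 1 and LSK total 2 were thus nearly equal, and the median log2 change in LSK was -0.0031. In MP the respiratory chain genes summed to 15795, 20740 and 17924 CPM in polysomal against 22513 and 24468 CPM in total libraries, with a median log2 change of -0.658. Zfp genes summed to 7978 and 6424 CPM in LSK polysomal against 9960 and 8206 CPM in LSK total libraries. In MP they summed to 7613, 6663 and 8213 CPM in polysomal against 5539 and 5916 CPM in total libraries, with a median log2 change of 0.572.

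Malat1, with the levels given above, had a log2 change that was 4.11 higher in MP than in LSK. The test of that difference in edgeR did not call it (adjusted p = 0.877, Benjamini-Hochberg).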

How the results depend on the processing

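Adjusted calls depended on the tool and the filter. Beside 0 higher and 2 lower genes with edgeR, DESeq2 called 132 higher and 682 lower in the additive model, and edgeR without a filter on low counts 73 and 617 of 31421 genes. Lower calls numbered 0 with the average of the within-population contrasts, in LSK alone and in MP alone, and 1 with a mean of at least 10 CPM or with limma on the authors' normalized table. Leaving out 1 library gave 0 to 2 lower calls.

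At an unadjusted p under 0.05, 680 genes were higher and 1554 lower. Library totals gave 281 higher, a mean of at least 10 CPM 316 higher and 459 lower, LSK alone 97 and 1002, MP alone 1451 and 771, and no filter 2675 lower. Leaving out 1 library gave 309 to 1363 higher and 1272 to 1871 lower. The stricter filter tests fewer genes and single populations hold fewer libraries; for the rest the cause was not tested.

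With library number as a replicate block, edgeR called 0 higher and 2 lower genes, Gm10800 among them (adjusted p = 0.0143) and Zfp46 not (adjusted p = 0.252), and 1 gene within MP. Deviations of same-numbered libraries from their group mean correlated at 0.457 in both LSK pairs and at 0.445 and -0.375 in MP. The LSK pairs must give the same value, because each LSK group holds 2 libraries. The MP values differed in sign, and MP polysomal 2 was not most like its own number. Whether the numbers pair the samples was thus not settled, and the fit without a block stayed the main one.

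Without 1 library, the difference in detected genes lay between -6087 and -3104, in the coding share between 0.821 and 1.79 percentage points, in the long noncoding share between -0.579 and -0.341 and in the pseudogene share between -0.169 and -0.103. Their exact permutation p was between 0.0333 and 0.133, where 0.0556 is the smallest possible without an MP polysomal library. The log2 change of Malat1, -0.92 in the additive model, was 1.07 in MP alone and lay between -1.82 and 0.10 without 1 library. The counts of list members, the length relation and the host pairs without single libraries, and the DESeq2 counts by list and by transcript feature, were alternatives chosen after seeing the data.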

Other observations

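Further gene lists gave counts in the same comparison, at an unadjusted p under 0.05 with the same direction in LSK and MP. Of 41 interferon response genes, 8 were higher and 0 lower, with a median log2 change of 0.72, and 3 to 12 were higher without 1 library. Of 26 cytosolic heat shock genes, 7 were higher and 4 lower, and 3 to 10 were higher and 0 to 5 lower without 1 library. Of 11 tested genes named for microRNAs, which include hairpins and longer host genes such as Mir99ahg, 7 were lower and 0 higher, and 6 to 8 were lower without 1 library. Of 2199 tested predicted gene models, 666 were lower and 20 higher, and 493 to 649 were lower and 3 to 47 higher without 1 library. Lysosome genes had 3 of 49 higher, and 1 (LSK polysomal 1 or LSK total 2) to 9 (MP polysomal 3) without 1 library. Proteasome subunits had 2 of 38 higher, and 0 (LSK polysomal 1 or MP polysomal 2) to 8 (LSK polysomal 2). Of 51 ribosome assembly genes 4 were higher and 3 lower, with 15 higher without LSK polysomal 2, 12 without LSK total 1 and 0 without LSK polysomal 1, LSK total 2, MP polysomal 2, MP total 1 or MP total 2.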
